A study of Homo sapiens with 8 samples.

Results

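The D4Z4 arrays at the ends of chromosomes 4 and 10 are tandem repeats whose units each carry a copy of DUX4. The peaks described here lay in windows that hold these repeats, in U2OS cells, a human osteosarcoma line. The members were chosen by position, in hg19 coordinates. The 4q array was taken as 190940000 to 191044000 on chromosome 4, and the 10q array as 135440000 to 135525000 on chromosome 10. All peaks sharing at least 1 bp with either were members. In the counts and shares below, array means this whole window, which is longer than the repeat ladder described below. The windows were selected with the peak positions of these data known, so the presence, number and score of peaks in them is a description and is not tested. The rule found 67 peaks of the 96832 on chromosomes 1 to 22 and X: 16 of 10666 in early G1, 9 of 10341 in mid G1, 9 of 1328 in late G1 and 33 of 74497 in the methylation map. Of these, 44 lay in the 4q array and 23 in the 10q array.

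The series holds 8 samples: chromatin immunoprecipitation and sequencing (ChIP-seq) of ORCA in U2OS cells in early, mid and late G1, methylated DNA immunoprecipitation and sequencing (MeDIP-seq) in U2OS cells with no stage in the labels, and an input for each. Each group was 1 sample, with no genetic change or drug named in the labels, so no difference between stages can be set against replicate error. The inputs were not analysed here, the number of reads is unknown, and the deposited MeDIP list carries the tag gl3, which the labels do not explain.

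ORCA (LRWD1) stabilises the origin recognition complex on chromatin and is known for its place in heterochromatin, the compact and largely silent part of the genome. DUX4 encodes a double homeobox transcription factor that is active in the cleavage-stage embryo and is normally silenced in somatic cells, where D4Z4 repeats are methylated and heterochromatic. Shortening or loss of silencing of the 4q array on a permissive haplotype causes facioscapulohumeral muscular dystrophy, while the nearly identical 10q array is not usually linked to disease.

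In the RefSeq gene table of GRCh38.p14, used here only for names and order, chromosome 4 reads FRG1, TUBB7P, DUX4L9, FRG2, DBET, a series of DUX4L pseudogenes from DUX4L8 to DUX4L2, and DUX4, with other pseudogenes and noncoding RNAs between. DBET is a long noncoding RNA gene at the proximal edge of the 4q repeats. From FRG1 on there were 9 DUX4L entries on chromosome 4, and from FRG2B on there were 14 on chromosome 10, among them DUX4L20 to DUX4L25 and DUX4L10 to DUX4L15. An hg19 annotation was not used here, so single peaks were not assigned to exons, introns or single DUX4 copies.

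MeDIP depends on methylated CpG, and the promoter of DUX4 is shown because it is dense in CpG. RefSeq places it at chr4:190173524-190173823 on the plus strand of GRCh38.p14, a build whose positions cannot be compared with the hg19 positions of the peaks. In it, CG is in capitals:
DUX4: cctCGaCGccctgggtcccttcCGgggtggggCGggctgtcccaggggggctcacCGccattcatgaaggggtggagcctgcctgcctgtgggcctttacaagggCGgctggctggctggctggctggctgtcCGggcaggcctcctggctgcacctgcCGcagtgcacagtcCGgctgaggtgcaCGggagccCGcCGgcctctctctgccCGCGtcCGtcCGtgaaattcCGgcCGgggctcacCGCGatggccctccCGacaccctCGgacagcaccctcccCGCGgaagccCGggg
It holds 25 CG dinucleotides (the same on both strands) in 300 bases and 73.3% G and C, against a median of 14 CG over 35116 promoters of that length, of which 32.03% held at least as many. The promoter of DBET held 2 and that of FRG2, a gene listed between FRG1 and DBET, held 9, which 89.0% and 58.4% of promoters reached. FRG2 is shown since the 10q region has a copy of it, FRG2B. The sequence lies on the minus strand at chr4:190027207-190027506 in GRCh38.p14, again with CG in capitals:
FRG2: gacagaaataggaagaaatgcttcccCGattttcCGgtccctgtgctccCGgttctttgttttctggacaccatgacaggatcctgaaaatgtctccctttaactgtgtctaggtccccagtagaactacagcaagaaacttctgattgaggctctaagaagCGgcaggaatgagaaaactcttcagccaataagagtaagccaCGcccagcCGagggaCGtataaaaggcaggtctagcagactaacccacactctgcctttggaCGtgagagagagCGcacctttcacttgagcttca
Set against each other with a shift of 1 base, the FRG2 and FRG2B promoters differed at 0 of 299 compared positions. Reads from such stretches cannot be placed on one chromosome by sequence, and how the authors treated reads with several matches is unknown from the labels. Values for 4q and 10q therefore may share reads, and which array a read came from is uncertain throughout. The same holds for the near-identical units within an array.

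MeDIP peaks formed a regular ladder in both arrays. In the 4q array, 16 of the 19 MeDIP peaks made up 1 run from 190986065 to 191013648, a run being peaks with at most 1 kb between their edges, a definition made after the positions were seen. In the 10q array, 13 of the 14 MeDIP peaks made up a run from 135477506 to 135498727. The runs were 27.6 and 21.2 kb long, and MeDIP peaks covered 81.3% and 83.2% of their bases. The window reached 46.1 kb before and 30.4 kb after the run in 4q, and 37.5 and 26.3 kb in 10q.

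Most of each run consisted of pairs, a shorter peak followed after less than 100 bp by a longer one. The 4q run held 7 pairs after 2 single peaks, and the 10q run held 6 pairs after 1 single peak. In 4q the shorter peaks were 1021 to 1114 bp wide (median 1103) and the longer ones 1535 to 1589 bp (median 1540). In 10q the shorter peaks were 1115 to 1127 bp (median 1122) and the longer ones 1588 to 1593 bp (median 1591). All 6 shorter 10q peaks were thus wider than all 7 shorter 4q peaks, by as little as 1 bp. Of the longer 4q peaks, 1 had the 10q width, at 1589 bp from 191002225 to 191003813.

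The pairs recurred at the length of a D4Z4 unit. From the start of one pair to the start of the next the distance in 4q was 3218 to 3304 bp, with a median of 3294.5 and a mean of 3282 ± 31.9 (SD, n = 6 distances). In 10q it was 3301 to 3315 bp, with a median of 3307 and a mean of 3308 ± 5.08 (SD, n = 5 distances). These SDs are over neighbouring units of 1 sample, not over replicates. The sequence itself repeats at this length, and reads cannot be placed on single units. The regular spacing alone is therefore no finding about methylation. The shortest distance, 3218 bp, was the first in the 4q run, and the other 4q distances were 3288 bp or more. Inside a pair the gap was 12 to 36 bp in 4q and 23 to 27 bp in 10q. Between pairs it was 571 to 637 bp in 4q and 567 to 572 bp in 10q.

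**Figure D1:**
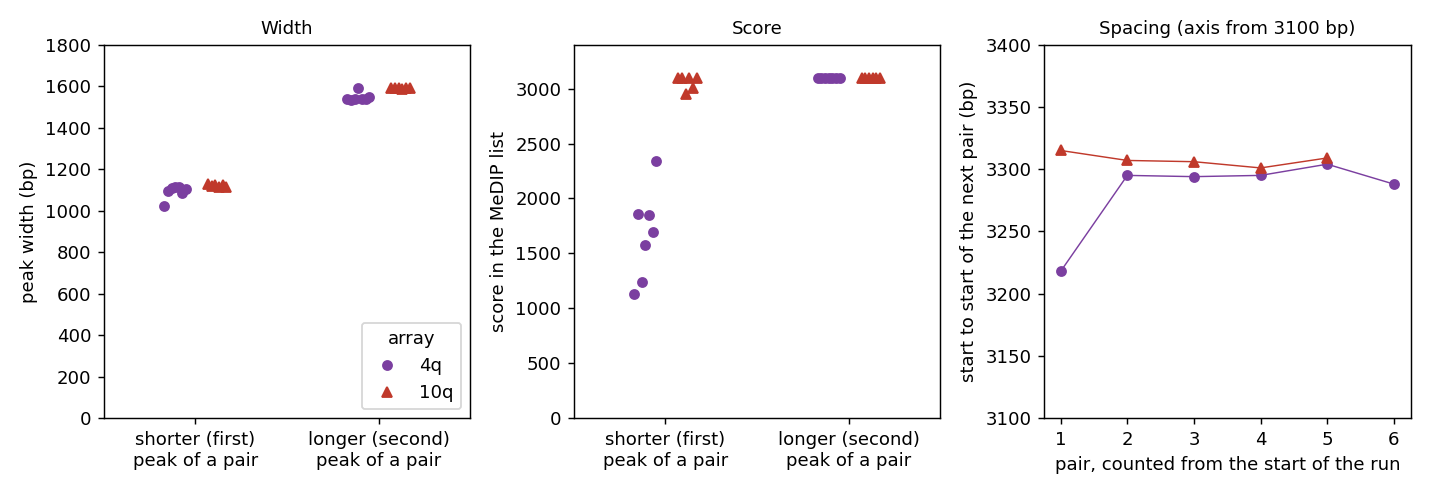
MeDIP pairs of the 4q array (7 pairs, circles) and 10q array (6 pairs, triangles): peak width in bp, score in the MeDIP list, and distance in bp from the start of a pair to the start of the next, on an axis that begins at 3100 bp. Each point is 1 peak or 1 distance. The shorter peaks of 4q have scores of 1132 to 2340, below those of 10q at 2952 to 3100, while the longer peaks of both arrays all have 3100. The points of an array are not replicates, and the arrays may share reads, so a difference between arrays was not tested.

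The score is the peak caller's own value per peak, compared only within a list. All longer peaks of the pairs had a score of 3100 in both arrays, a value that 5259 of 74497 MeDIP peaks shared, so these cannot be ordered further. The shorter 4q peaks ranged from 1132 to 2340 (median 1692), in order along the run 1132, 1856, 1238, 1574, 1848, 1692 and 2340. The shorter 10q peaks scored 3100, 3100, 2952, 3100, 3006 and 3100. The shorter peaks of the arrays did not overlap in score, with the lowest 10q value above the highest 4q value. Most of these 10q scores were the tied value of 3100. Neighbouring units of a single sample are not replicates, and which array a read came from is uncertain. Whether methylation differed between the arrays was therefore not tested. By position, the 5 MeDIP peaks of 4q named first at 3100 began at 190939657, 190942517, 190987917, 190992340 and 190995625, and those of 10q at 135477506, 135479460, 135480614, 135482775 and 135483919. The widest MeDIP members were 2725 bp in 4q, from 190987917 to 190990641, and 1593 bp in 10q. The 4q one had nearly the width of a pair, which spanned 2597 to 2724 bp there. None of the 33 MeDIP members reached 3000 bp, a width that 2.91% of all MeDIP peaks reached.

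Across chromosomes 1 to 22 and X, 794 runs of at least 5 MeDIP peaks were found by the same definition. Of these, 24 held 12 peaks or more, and the longest held 20. The 4q run was among the 3 with 16 or more, and the 10q run among the 16 with 13 or more. Runs with 5 or more pairs numbered 2, the 4q and the 10q run. With up to 2 kb allowed between peaks there were 3, the third being a run of 23 peaks from 85647877 to 85700423 on chromosome 16. Its 5 pairs began 7507 to 12974 bp apart, against 3218 to 3304 bp in 4q and 3301 to 3315 bp in 10q. Both runs of pairs were seen before this count was made, and it is given as a description.

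ORCA peaks covered nearly the whole 4q run at all 3 stages. Early G1 peaks covered 98.1% of its bases, mid G1 peaks 98.3% and late G1 peaks 91.7%. The early peaks reached from 190986244 to 191014511, the mid peaks from 190986312 to 191014407 and the late peaks from 190986347 to 191013972. At each stage they began 179 to 282 bp inside the run and ended 324 to 863 bp beyond it. ORCA thus covered the gaps between MeDIP peaks as well as the peaks: of the early ORCA bases in the run, 82.0% lay under a MeDIP peak, close to the 81.3% of the run that MeDIP peaks cover.

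**Figure D2:**
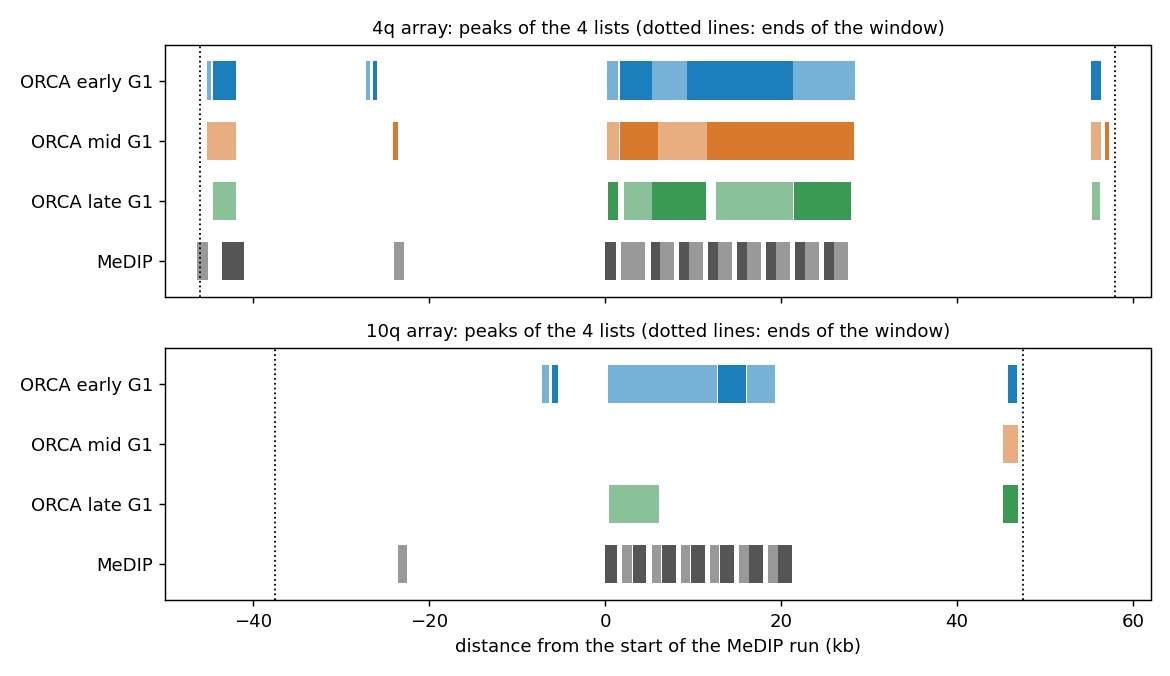
Peaks of the 3 ORCA lists and the MeDIP list in the 4q (top) and 10q (bottom) arrays, drawn to scale by distance in kb from the start of the MeDIP run, with neighbouring peaks in alternating shades and dotted lines at the ends of each window. ORCA covers 98.1%, 98.3% and 91.7% of the 4q run in early, mid and late G1, and 89.3%, 0% and 27.1% of the 10q run.

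The 10q run differed between the lists. Early G1 peaks covered 89.3% of its bases, late G1 peaks 27.1% and mid G1 peaks 0%. The early peaks reached from 135477832 to 135496855 and stopped 1872 bp before the end of the run. The only late peak, from 135477887 to 135483632, ended 15095 bp before it. In the mid list, where the lowest score was 50, no peak was listed over the 10q run, while 4 mid peaks lay over the 4q run. With 1 sample per stage these differences have no replicate check, and the late list is far shorter and may come from another caller setting or version, so list and stage cannot be told apart.

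Repeat by repeat, coverage by listed peaks was 73.2% or more in 4q at all 3 stages, and stepped in 10q in late G1. Taken from the start of one MeDIP pair to the start of the next, the 6 units of 4q were covered to between 98.3% and 100% in early G1, 99.5% and 100% in mid G1, and 73.2% and 100% in late G1. The late value of 73.2% belonged to the unit that begins at 190997796. The 5 units of 10q were covered to between 98.7% and 100% in early G1. In late G1 they were covered to 100%, 25.9%, 0%, 0% and 0% in order along the run. The listed late peak thus lay over the centromere-proximal units. Short reads cannot tell near-identical repeats apart, so this step does not show which units ORCA bound.

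The peaks over the 4q run were wide and high-scoring for their lists. In early G1 a first peak from 190986244 to 190987540 (1297 bp) had a score of 273. It was followed by peaks of 3631 bp from 190987792 with a score of 845, of 3941 bp from 190991436 with 485, of 11964 bp from 190995406 with 735, and of 7086 bp from 191007426 with 1397. The peak of 11964 bp was the 6th widest of the early list by rank. The score of 1397 put the last of them at rank 41 of 10666. All 5 lay within the highest 2.55% of the list.

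In mid G1 the run held 4 peaks. They were 1269 bp from 190986312 with a score of 332, 4288 bp from 190987781 with 1185, 5544 bp from 190992083 with 2511 and 16763 bp from 190997645 with 719. The last was the 2nd widest of the mid list by rank, and the score of 2511 was at rank 18 of 10341. All 4 lay within the highest 2.65% of the list.

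In late G1 the run held 5 peaks. They were 1209 bp from 190986347 with a score of 170, 3257 bp from 190988152 with 417, 6062 bp from 190991435 with 691, 8691 bp from 190998680 with 653 and 6412 bp from 191007561 with 849. The score of 849 was at rank 41 of 1328 and the width of 8691 bp at rank 7. In order along the run the scores lay within the highest 14.8%, 6.10%, 3.84%, 4.14% and 3.09% of the list, so the first was outside the highest 10%. In each of the 3 lists the first peak over the run had the lowest score there.

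In 10q the early peaks were 12410 bp from 135477832 with a score of 317, 3269 bp from 135490284 with 331 and 3279 bp from 135493577 with 923. The first was the 5th widest of the early list by rank, wider than any early peak of 4q. The late peak over the run was 5746 bp wide with a score of 923, at rank 34 of 1328, above all late scores of 4q. Over both arrays, 7 of 16 early, 4 of 9 mid and 5 of 9 late ORCA members were at least 3000 bp wide, against 1.42%, 1.78% and 4.97% of all peaks of these lists. Members in the highest 1% of their list by score numbered 4 for early G1, 4 for mid G1 and 0 for late G1.

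**Figure D3:**
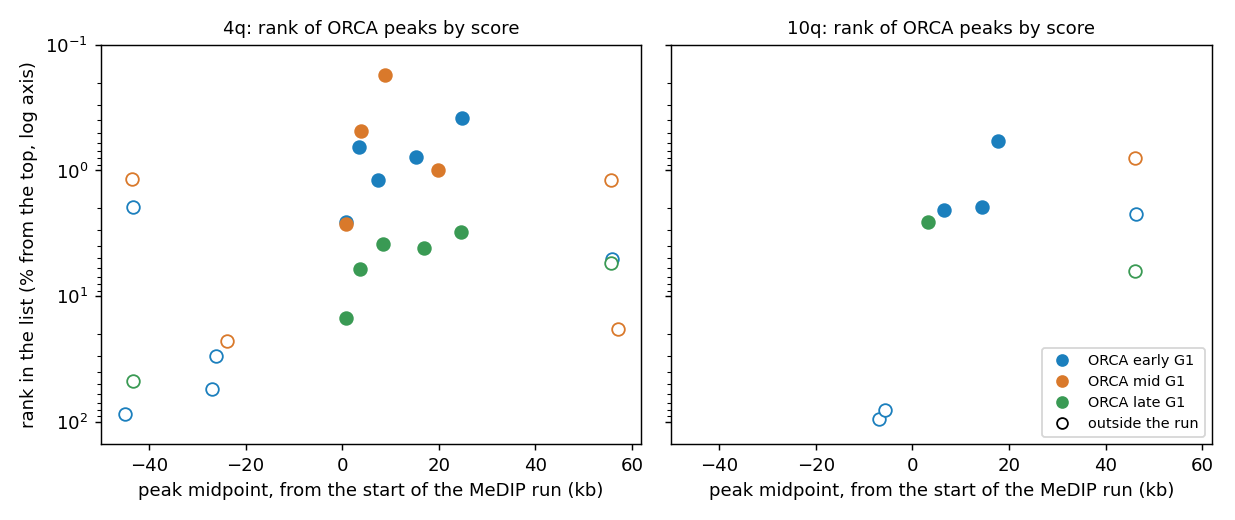
Rank by score of each ORCA member within its own list, as percent from the top on a log axis (higher is a higher score), against the midpoint of the peak in kb from the start of the MeDIP run, for 4q (left) and 10q (right). Filled points overlap the MeDIP run and open points do not; the filled early and mid points of 4q lie within the highest 2.65% of their lists.

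ORCA peaks over the runs were cut by short breaks, 13 in all, of which 8 were under 100 bp. Of the 13, 6 lay inside a MeDIP peak, 5 between MeDIP peaks and 2 across the edge of one. The first break of 4q, between 190987541 and 190988151, was present at all 3 stages and measured 251 bp in early, 200 bp in mid and 596 bp in late G1. Breaks near 190991423 and 191007370 were shared by early and late G1 within 100 bp and were not in mid G1. A break near 190997627 was shared by mid and late G1, with 18 bp in mid and 1183 bp in late G1. In 10q the 2 early breaks began 3311 bp apart, at 135490242 and 135493553. Most of the 4q run thus lay under listed ORCA peaks in every list, while the division into peaks differed between lists. In 10q this coverage was seen in early G1 only, with 0% of the run covered in mid and 27.1% in late G1.

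**Figure D4:**
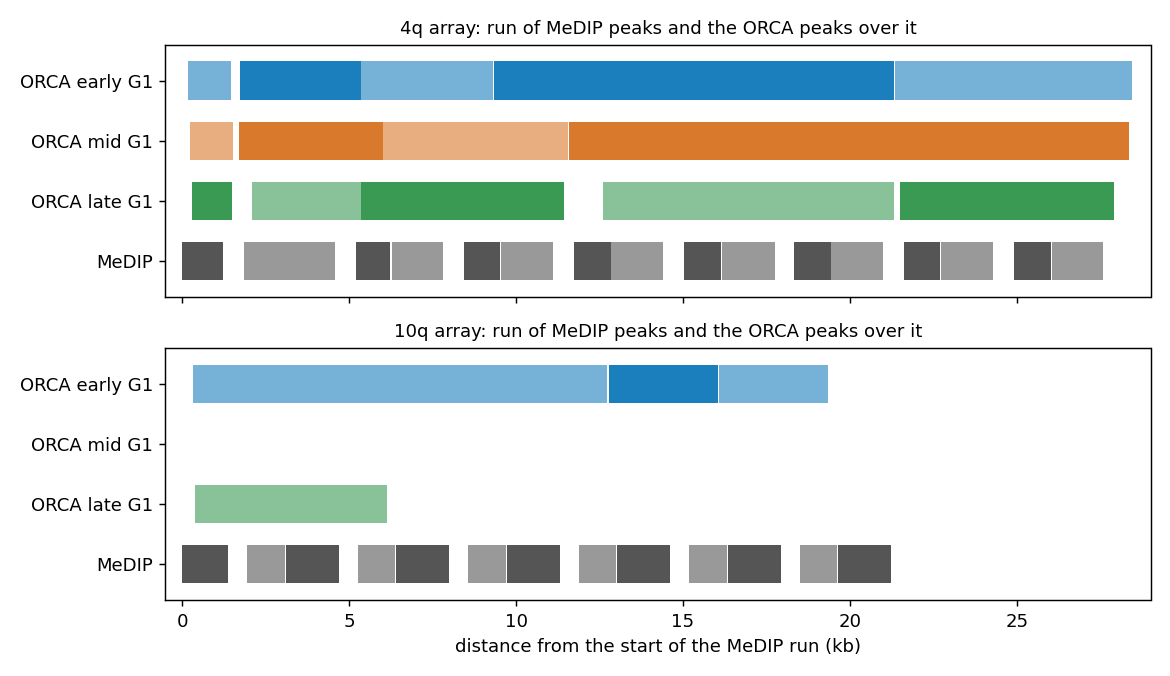
The runs of MeDIP peaks in 4q (top) and 10q (bottom) and the ORCA peaks over them, drawn to scale in kb from the start of each run, with neighbouring peaks in alternating shades. MeDIP pairs repeat every 3294.5 bp (4q) and 3307 bp (10q, both medians), and the ORCA peaks span several repeats, up to 16763 bp.

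Outside the runs, both arrays had an ORCA site beyond the distal end of the run with no MeDIP peak. In 4q it lay from 191041319 to 191042412, joined over the stages. It measured 1061 bp with a score of 183 in early, 1092 bp with 580 in mid and 997 bp with 483 in late G1. In 10q it lay from 135522699 to 135524464. It measured 1044 bp with 297 in early, 1766 bp with 866 in mid and 1711 bp with 411 in late G1, and its mid peak was the only mid member of 10q. In kb from the end of the run, the site began at 27.7 in each 4q list and at 24.6, 23.97 and 23.98 in the early, mid and late lists of 10q. A further mid peak of 501 bp from 191042900, with a score of 115, followed it in 4q. After the window no list held a peak on either chromosome, but whether reads could be placed there was not examined.

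On the centromere side no ORCA site lay at a like distance from the run in both arrays. The 4q sites began at -45.3, -27.2, -26.4 and -24.1 kb from the run, and those of 10q at -7.19 and -6.01 kb. The 10q window began 37.5 kb before its run, so it could not hold a counterpart of the first 4q site. The last ORCA peaks before the 10q window ended 404 kb (early), 404 kb (mid) and 514 kb (late) before it. The 4q site from 190940810 to 190944143 was present at all 3 stages, as 2 early peaks of 443 bp (score 53.1) and 2649 bp (336), 1 mid peak of 3334 bp (593) and 1 late peak of 2622 bp (71.7). It overlapped the MeDIP peaks from 190939657 to 190940877 and from 190942517 to 190944947, both with a score of 3100. Early G1 alone had peaks of 533 bp from 190958831 (61.9) and 517 bp from 190959653 (77.7), both without a MeDIP peak. Mid G1 alone had a peak of 570 bp from 190961966 (102), over the MeDIP peak from 190962016 to 190963180, which scored 1632. In 10q, early G1 alone had peaks of 751 bp from 135470314 (51.2) and 596 bp from 135471500 (54.4), close to the lowest score of the list, without a MeDIP peak.

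Methylated sites were also listed on this side. The 4q MeDIP peak from 190962016 began at -24.05 kb from the start of its run. The 10q MeDIP peak from 135453903 to 135454961 (score 477) began at -23.6 kb from the start of its run and had no ORCA peak. The 4q peak from 190942517 began at -43.5 kb from the start of its run, and the last 10q peak before the window, from 135435978 to 135436883 (score 1198), began 41.5 kb before its run. The 1 Mb it lies in held 259 MeDIP peaks, so a peak at a like distance is no sign of a match. The 4q peak from 190939657 began at -46.4 kb from its run, farther than the 10q window reaches. Also just outside the window, in 4q, were the mid ORCA peak from 190935849 to 190936826, with a score of 165, and the MeDIP peak from 190937759 to 190939554, with 2512.

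Joined over the 3 stages, ORCA made 8 regions in the 4q array, of which 4 were in all stages and 4 in a single stage. In 10q there were 6 regions, of which 1 was in all stages, 1 in early and late G1 and 4 in early G1 alone. The early regions from 135490284 and 135493577 were parted from the region before them by breaks of only 42 and 24 bp. In 4q, breaks under 100 bp were bridged by another list, within 1 joined region of 26731 bp. The numbers of regions therefore depend on how the lists divide peaks. By bases, 96.2% of early and 95.5% of mid ORCA coverage in 4q was shared between these stages, and 99.8% of late coverage lay under early and 99.95% under mid peaks. In 10q early and mid G1 shared 4.89% of early and 59.1% of mid bases, early and late G1 shared 31.8% of early and 91.1% of late bases, and mid and late G1 shared 96.9% of mid and 22.9% of late bases. Of the early members of both arrays, 8 of 16 overlapped a peak of both other stages, against 7.69% of all early peaks. In mid G1 it was 7 of 9 against 7.49%, and in late G1 8 of 9 against 56.3%. The rule used the same lists, and nothing is read from these shares.

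Methylation peaks overlapped 7 of 10 early ORCA members of 4q (70%, exact interval 34.8 to 93.3), 6 of 8 mid (75%, 34.9 to 96.8) and 6 of 7 late members (85.7%, 42.1 to 99.6). In 10q it was 3 of 6 early (50%, 11.8 to 88.2), 0 of 1 mid and 1 of 2 late members. The share over the whole list was 35.3% for early G1, 48.6% for mid G1 and 47.9% for late G1. The intervals are 95% Clopper-Pearson intervals and cover counting error only. They treat peaks as independent, which neighbouring peaks of a repeat are not. Where given, they contain the share of the whole list, but the members were chosen with their positions known, and nothing is read from this.

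Seen from the MeDIP side, 31 of 33 members overlapped an ORCA peak of any stage, against 8.04% of all MeDIP peaks. In 4q all 19 did, 18 with early, 19 with mid and 17 with late G1. In 10q 12 of 14 did, 12 with early, 0 with mid and 4 with late G1. The 10q members without ORCA were the peak from 135453903 and the last of the run, from 135497137 to 135498727.

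The 1 Mb before the array held less ORCA coverage than the array in all 3 lists for 4q and in early and late G1 for 10q. In 4q, early ORCA peaks covered 31.8% of the array and 0.588% of the 1 Mb before it, mid peaks 32.1% and 0.900%, and late peaks 28.1% and 0.446%. In 10q, early peaks covered 25.1% and 0.364%, mid peaks 2.08% and 0.583%, and late peaks 8.77% and 0.195%. The mid value of 10q rests on the peak of 1766 bp beyond the run: without it, or with the window narrowed by 10 kb at each end, it was 0%, below the 0.583% of the 1 Mb before. Over chromosomes 1 to 22 and X, the shares were 0.291%, 0.297% and 0.0570%. By number, the 4q array had 9.62 early, 7.69 mid and 6.73 late peaks per 100 kb against 0.8, 1.2 and 0.6 before it. The 10q array had 7.06, 1.18 and 2.35 against 0.5, 0.8 and 0.2.

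The 2 references differed in methylation. MeDIP peaks covered 25.9% of the 4q array and 2.56% of the 1 Mb before it, where there were 28 peaks. In 10q they covered 22.02% of the array and 35.3% of the 1 Mb before it, where there were 259 peaks, against 2.68% over chromosomes 1 to 22 and X. The 10q array was thus less covered by MeDIP peaks than the megabase beside it, and the 4q array more. The MeDIP-rich megabase of 10q held 5 early, 8 mid and 2 late ORCA peaks. Per 100 kb these were 0.5, 0.8 and 0.2, above the 0.362, 0.351 and 0.0450 over chromosomes 1 to 22 and X.

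**Figure D5:**
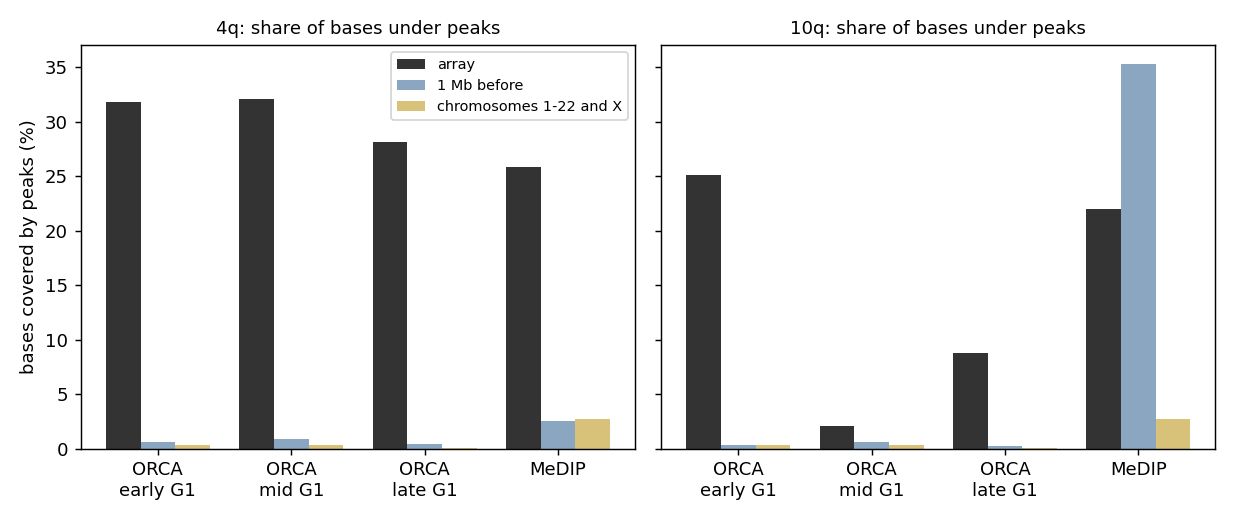
Share of bases covered by peaks, in percent, for the array, the 1 Mb before it and chromosomes 1 to 22 and X, in each of the 4 lists, for 4q (left) and 10q (right). ORCA bars of the 4q array stand above both references in every list, as do those of 10q in early and late G1. The mid G1 bar of 10q (2.08% against 0.583%) is 1 peak of 1766 bp outside the run and is 0% with the window narrowed by 10 kb at each end, while the MeDIP bar of the 10q array (22.02%) is below that of the megabase before it (35.3%).

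The strongest ORCA peaks of the 4q reference recurred between stages. The highest early peaks lay from 190572679 to 190573950 (score 168), from 190235458 to 190236057 (143) and from 190642057 to 190642858 (97.4). In mid G1 the first were from 190235422 to 190236112 (234) and from 190572280 to 190573962 (185), followed by the peak from 190935849. In late G1 they were from 190235466 to 190236127 (94.1), from 190572665 to 190573895 (63.3) and from 190813816 to 190814314 (58.3). The site near 190235458 also held a MeDIP peak, from 190235492 to 190236108, with a score of 3100. MeDIP peaks from 190228389 to 190231123 and from 190416767 to 190418099 had the same score. Each of these ORCA scores was below the lowest score over the 4q run in its own list.

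In the 10q reference 1 site scored far above the other reference peaks of each ORCA list. It lay from 134639237 to 134640708 with a score of 1165 in early, from 134639250 to 134640400 with 1123 in mid, and from 134639241 to 134640272 with 743 in late G1. In early and mid G1 it scored above all members of 10q. The next were from 134924612 to 134925511 (163) and from 134638103 to 134638685 (92.8) in early, from 134824230 to 134825398 (135) and from 134637013 to 134637681 (97.5) in mid, and from 134924642 to 134925561 (56.7) in late G1. The highest MeDIP scores there were 3181 from 135146536 to 135149906, 3175 from 134719279 to 134720816 and 3167 from 135098212 to 135099885. The value of 3100 was shared by 5259 MeDIP peaks, while the highest score of the list was 3233. Whether 3100 is a limit set by the caller was not examined. These scores are therefore not ranked against the 3100 of the arrays.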

How the data were processed

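ORCA ChIP-seq and MeDIP-seq were each represented by 1 deposited peak list per immunoprecipitated sample, 4 lists in all. Trimmomatic, Bowtie 0.12.7 and the build GRCh37 (hg19) are named in the submitters' processing notes, without order. Peak names begin with MACS, per the deposited lists. Its version, settings and control are not stated in the labels, and neither is read depth, so the precision of single peaks is unknown. In their names, the early and mid lists give MACS one number and the late list another, which the labels do not explain. Each deposited peak has a score, read here as a value of the caller and compared only within its list. Starts, counted from 0 in the deposited lists, are printed from 1. Other chromosomes than 1 to 22 and X were left out.

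Members, windows and lists were chosen with earlier results of these data known. All members are given: each peak where a list had at most 10 in an array, and otherwise the 5 of highest score, the widest and the range. Ranks gave tied scores their mean. Overlap meant at least 1 bp. Covered shares over all chromosomes used the span from the first to the last peak of any list. Runs were MeDIP peaks at most 1 kb apart, and pairs were neighbours less than 100 bp apart. No test was made, with 1 sample per group. Alternatives covered score, window, reference, overlap and run definitions. The counting of overlaps and runs was checked on simulated data. Promoter sequences and gene order came from RefSeq (GRCh38.p14). Tables were made with pandas 2.3.3, numpy 2.4.6 and scipy 1.17.1 in Python 3.11.15, and plots with matplotlib 3.10.9.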

Additional observations from a re-analysis of the deposited data

How the results depend on the processing

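Of 117 recomputed values, 95 stayed within the limits set (1.5 times for counts, 95% intervals or 1 SD for others), and 22 moved, 18 of them covered shares, whose interval over bases is narrow. With a score of at least 100, covered shares became 30.4% (early), 25.6% (late) in 4q and 23.5% (early) in 10q, and the mid peak density of 4q became 19.2 times that of the 1 Mb before it, against 6.41. Density ratios within their wide intervals still varied: 4q early was 12.02 and became 33.7 at a score of at least 100, 21.4 with 2 Mb and 6.87 with 500 kb as reference, 10q early was 14.1 and became 35.3 with 500 kb, and 10q mid was 1.47 and became 5.88 at a score of at least 100. Without the widest peak of each list, the covered shares of 4q became 20.3% (early), 15.96% (mid), 19.8% (late) and 23.2% (MeDIP). Those of 10q became 10.5%, 0%, 2.01% and 20.1%, so 1 peak carries much of the ORCA coverage of 10q. With the windows narrowed by 10 kb at each end, covered shares became 34.5%, 33.8%, 30.5% and 28.1% in 4q. In 10q they became 31.2% (early), 0% (mid) and 28.8% (MeDIP). The number of peaks then fell from 8 to 5 for mid 4q, from 1 to 0 for mid 10q and from 2 to 1 for late 10q. MeDIP overlap (18 values), spacing (7) and sharing between stages (4) stayed within the limits, although with 50% overlap the 4q regions in all stages went from 4 to 6 and early MeDIP overlap in 4q from 70% to 60%, and at a score of at least 100 these regions went to 3. Runs with 5 or more pairs went from 2 to 3 with a run gap of 2 kb. Cut to the length of the late list, the early and mid lists held 7 and 6 peaks in the 4q array, and 4 and 1 in the 10q array. The run definitions, and early and mid lists cut to the length of the late list, were chosen after seeing the data. No value could be given for the density of late 4q at a score of at least 100, for late 10q with a reference of 500 kb, where the references held no peak, or for the spacing of the single mid peak of 10q. No paired analysis was possible because each group was 1 sample and no result came from a test. Read depth is unknown, so an unlisted peak may be one that fell short of the threshold.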
